A study of Arabidopsis thaliana with 30 samples.

Results

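The comparison described here set rosettes of the wild type Ler kept under the sunlight filter named UVA+B against Ler rosettes kept under the filter named blue0, and followed transcript levels across all expressed genes of Arabidopsis thaliana. Its members were the libraries whose titles name Ler with 1 of these 2 filters, 4 of the 30 libraries of the study. Ler UVA+B and Ler blue0 had 2 libraries each. Both groups were unmutated plants 3 weeks old, raised in growth rooms under lamps with a film that held back lamp UV-A, moved outdoors at sunrise and harvested at solar noon after 6 h of filtered sunlight. The study addressed the roles of the UV-B receptor UVR8 and of cryptochromes in the transcript response to sunlight, with 3 genotypes under the 5 long-pass filters blue0, UV0, UVA350, UVA and UVA+B. The mutants were uvr8-2, which lacks functional UVR8, and cry1cry2, which is mutated in cryptochromes 1 and 2. No wavelengths are given for the filters, so that the comparison is known by the filter names only. Each library pooled RNA of 2 field blocks, with 5 whole rosettes per block sample, from 1 outdoor day, and p-values therefore measure the spread between such pools. In whole rosettes, a change in the number of cells of a type and a change of RNA per cell cannot be told apart.

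Plants sense the short wavelengths of sunlight through separate receptors. UVR8 monomers formed in UV-B bind the ubiquitin ligase COP1, which stabilises the bZIP factor HY5, while cryptochromes absorb blue light and UV-A, also bind COP1 and in addition meet the growth-promoting PIF factors. HY5 and its homologue HYH drive genes of flavonoid synthesis, DNA repair and photoprotection, and the repressors RUP1 and RUP2 return UVR8 to its inactive dimer. PIF factors act through auxin and cell wall genes that lengthen stems and petioles under shade.

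Library totals were 15130261 and 16635025 estimated counts in Ler UVA+B, against 16556939 and 15071378 in Ler blue0. Chloroplast genes took 0.525% and 0.244% of the counts in Ler UVA+B, and 0.123% and 0.253% in Ler blue0. The median absolute log2 difference of a gene was 0.169 between the 2 Ler UVA+B libraries and 0.147 between the 2 Ler blue0 libraries, and 0.338 to 0.406 between a UVA+B and a blue0 library. Leaf markers were abundant in all libraries, and the light-harvesting and Rubisco small subunit genes summed to 63111 and 55079 CPM in Ler UVA+B, against 75921 and 63299 CPM in Ler blue0. Of 6 floral markers, 4 were too low to test and the others summed to at most 3.40 CPM in any of the 4 libraries. Of 6 root markers, 4 were too low to test, among them RHD6 and PLT2 at 0 counts in all 4 libraries. The 2 tested were PYK10, named after its value was seen, and WOX5. They summed to 65.1 and 56.7 CPM in Ler UVA+B, against 43.1 and 49.4 CPM in Ler blue0, with WOX5 a minor part. Of the genes mutated in the other genotypes, CRY1 lay at 46.7 to 75.2 CPM in the 10 cry1cry2 libraries, against 77.2 to 134.6 CPM in the 10 Ler libraries. CRY2 lay at 40.1 to 86.7 CPM in cry1cry2, against 77.2 to 115.2 CPM in Ler. UVR8 transcript lay at 127 to 155 CPM in uvr8-2, against 113 to 135 CPM in Ler, and does not check that label.

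Sunlight under UVA+B set apart a large share of the transcriptome. Of 19980 genes tested, 8697 differed between Ler UVA+B and Ler blue0 (43.5%) by the quasi-likelihood test of edgeR, at a p below 0.05 after Benjamini-Hochberg adjustment. Of these, 4298 rose (21.5%) and 4399 fell (22.0%). The median log2 change of all genes tested was -0.03, a value that the scaling of libraries used here sets close to 0, so that the balance of risen and fallen genes is relative to it. At a fitted difference of at least 2-fold, 1373 genes rose and 1227 fell. At 8-fold, 176 rose and 47 fell, and at 32-fold the numbers were 55 and 4. The median size was 1.68-fold among risen genes and 1.64-fold among fallen genes, and the 2 directions differed mainly among the largest changes. In 14088 genes (70.5%) the 2 UVA+B libraries lay both above or both below the 2 blue0 libraries, of which 6872 were above (34.4%) and 7216 below (36.1%). Without Ler UVA+B replicate 2 the number called was 5986, and it was 6727, 7184 and 7963 without Ler blue0 replicate 1, Ler blue0 replicate 2 and Ler UVA+B replicate 1.

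**Figure D1:**
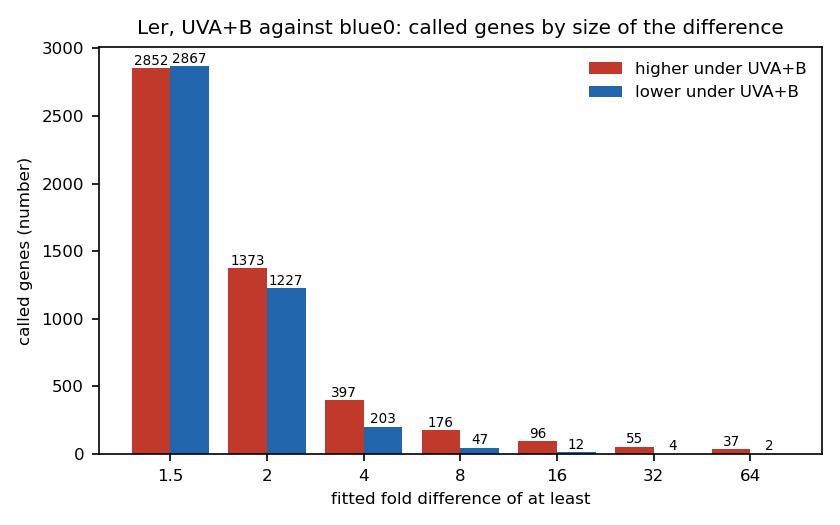
Number of called genes (vertical axis) whose fitted fold difference between Ler UVA+B and Ler blue0 reached at least the value on the horizontal axis, with genes higher under UVA+B in red on the left of each pair and genes lower in blue. The bars stand near each other at 1.5-fold, with 2852 and 2867 genes, and separate to 37 and 2 genes at 64-fold.

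The largest rises were those of early light-induced proteins, flavonoid genes and a set of genes with little or no transcript under blue0. ELIP2 (AT4G14690) and ELIP1 (AT3G22840) encode early light-induced proteins, thylakoid proteins that bind chlorophyll under excess light. ELIP2 had 2625 and 2907 CPM in Ler UVA+B, against 0.219 and 0.179 CPM in Ler blue0. Its blue0 libraries held a trace, and the fitted log2 change was 13.70 ± 1.06 (SE). ELIP1 had 5095 and 5898 CPM in Ler UVA+B, against 2.30 and 1.73 CPM in Ler blue0. The groups were far apart here too, with a log2 change of 11.40 ± 0.63. MYB12 (AT2G47460), a MYB factor that switches on flavonol genes, had 83.0 and 97.1 CPM in Ler UVA+B, against 0.110 and 0 CPM in Ler blue0. Only 2 counts stood behind the blue0 value against 2681 under UVA+B, a ratio of 1582 with an exact 95% interval of 438 to 13071 that covers counting error only. UGT84A1 (AT4G15480), a glucosyltransferase of hydroxycinnamates, had 374 and 351 CPM in Ler UVA+B, against 0.768 and 0.895 CPM in Ler blue0. It showed a log2 change of 8.76 ± 0.88.

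For 6 genes both blue0 libraries held 0 counts, which leaves only a minimum fold, set by allowing 3 counts to the 2 blue0 libraries together. AT1G64340, annotated as a serine/threonine kinase, had 23.3 and 28.7 CPM in Ler UVA+B and was at least 305-fold higher there. SDH2-3 (AT5G65165), an iron-sulfur subunit isoform of succinate dehydrogenase, had 12.3 and 14.5 CPM and was at least 157-fold higher. AT1G52990, of the thioredoxin family, had 10.2 and 13.8 CPM and was at least 141-fold higher. All of these were detectable at noon under UVA+B and undetected at this depth under blue0. The remaining bounds were at least 110-fold for AT4G27570, a UDP-glycosyltransferase, at least 87.7-fold for AT5G24130 and at least 61.0-fold for AT2G22960, an alpha/beta-hydrolase. Estimated counts of AT4G27570 and AT2G22960 are uncertain, since each has near-identical neighbours in a gene cluster. AT5G62210, annotated as embryo-specific protein 3, had 450.2 and 535 CPM in Ler UVA+B, against 4.33 and 3.82 CPM in Ler blue0. AT2G23910, a Rossmann-fold protein, had 596 and 861 CPM in Ler UVA+B, against 2.96 and 7.76 CPM in Ler blue0. The log2 changes of AT5G62210 and AT2G23910 were 6.91 ± 0.41 and 7.10 ± 0.91. AT2G22590, a further UDP-glycosyltransferase, and AT3G24750, an uncharacterised protein, changed by 7.83 ± 0.59 and 7.17 ± 0.67. Their sizes rested on blue0 libraries of few reads, with changes of 9.81 and 9.55 without Ler blue0 replicate 1 and of 7.09 and 6.37 without Ler blue0 replicate 2. That of AT2G23910 was 7.95 without Ler blue0 replicate 2. By the quasi-likelihood test of edgeR, Benjamini-Hochberg adjusted p-values of the 15 largest rises lay between 3.82e-11 and 1.31e-05.

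The largest fall was that of CIB1 (AT4G34530), a bHLH factor that cryptochrome 2 binds in blue light. It had 0 counts in both UVA+B libraries, against 14.1 and 12.7 CPM in Ler blue0, and was at least 133-fold lower under UVA+B. PORA (AT5G54190), a protochlorophyllide oxidoreductase known from dark-grown seedlings, had 0.927 and 0.320 CPM in Ler UVA+B, against 14.6 and 9.85 CPM in Ler blue0. Its log2 change was -4.31 ± 0.59. ACS8 (AT4G37770), an ACC synthase of ethylene synthesis, had 0.785 and 0.512 CPM in Ler UVA+B, against 15.2 and 9.37 CPM in Ler blue0. Here the change was -4.24 ± 0.58. SEN1 (AT4G35770), a senescence-associated gene also known as dark-inducible, had 1.07 and 0.256 CPM in Ler UVA+B, against 10.5 and 7.16 CPM in Ler blue0. The 2 UVA+B libraries differed among themselves, and the log2 change was -3.76 ± 0.72. Without Ler UVA+B replicate 1 the changes of PORA and SEN1 were -5.22 and -5.07, and without Ler UVA+B replicate 2 they were -3.71 and -3.04. CYP96A5 (AT2G21910), a cytochrome P450, rested on 3 counts under UVA+B against 178 under blue0, 50.3-fold lower with an exact 95% interval of 16.9 to 246. AT5G57760, uncharacterised, changed by -5.65 ± 0.57, and AT3G21330, a bHLH protein, by -4.39 ± 0.66. AT5G02760, a type 2C protein phosphatase, AT2G47780, annotated as a rubber elongation factor protein, and AT5G02540, a Rossmann-fold protein, changed by -4.07 ± 0.37, -3.59 ± 0.41 and -3.42 ± 0.31, and AT2G47780 by -4.21 without Ler UVA+B replicate 1. AT1G26220, an acyltransferase, had 1.21 and 0 CPM in Ler UVA+B, against 8.66 and 7.46 CPM in Ler blue0. It fell with a log2 change of -3.78 ± 1.42, but was called in only 1 of the 4 fits that leave out a library, that without Ler UVA+B replicate 1, where 0 counts are left under UVA+B. Without Ler UVA+B replicate 2 its change was -2.73. The range of adjusted p-values of the 15 largest falls was between 4.86e-08 and 0.0429 (edgeR quasi-likelihood test, Benjamini-Hochberg).

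**Figure D2:**
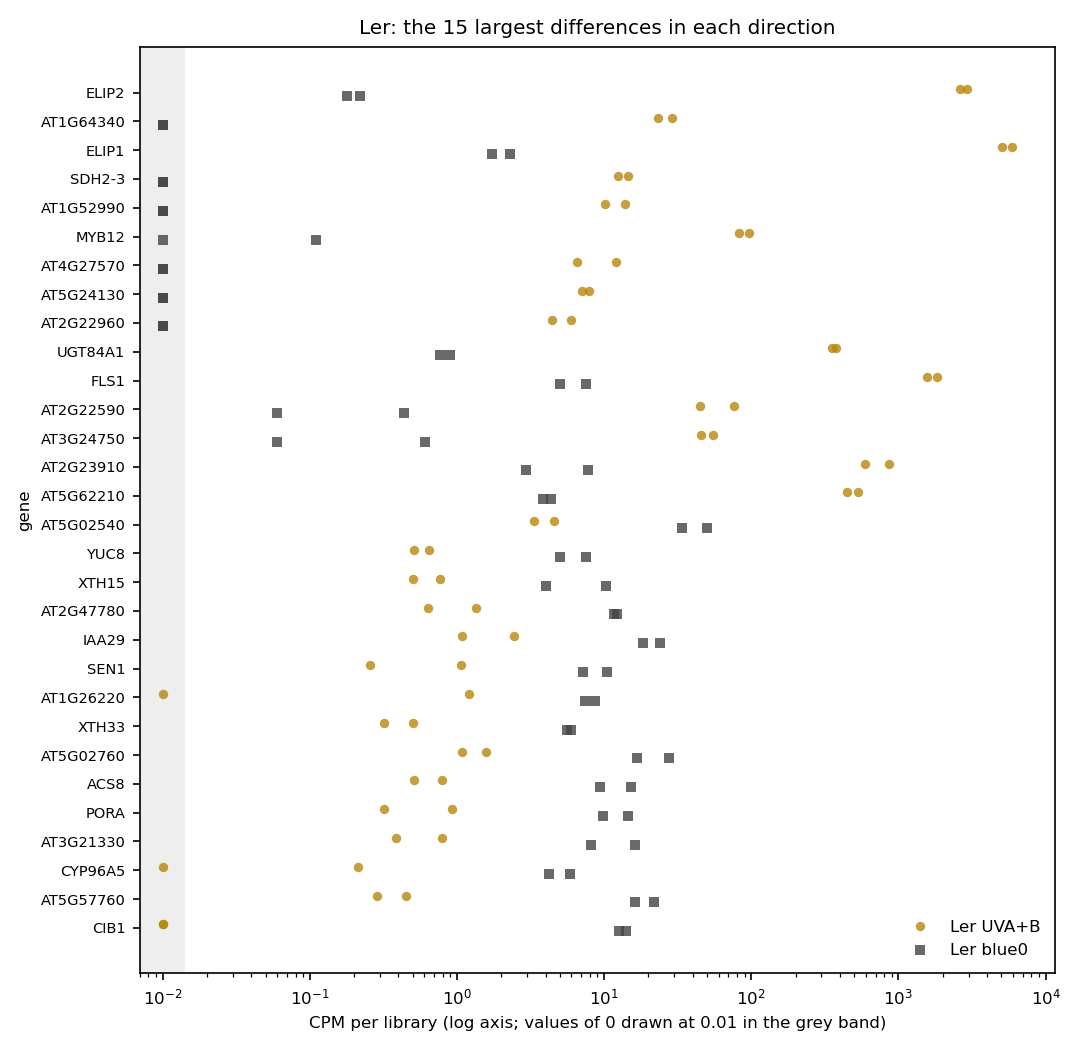
Level in CPM per library (horizontal log axis, values of 0 drawn in the grey band) of the 15 genes with the largest rise and the 15 with the largest fall, circles for the 2 Ler UVA+B libraries and squares for the 2 Ler blue0 libraries. Groups without overlap were a condition for choosing these genes, so circles lie right of squares in the upper 15 and left of them in the lower 15. CIB1 has both circles in the band of 0.

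Of the UVR8-HY5 signalling genes, 10 of 13 rose and 0 fell, with a median log2 change of 0.93 against -0.03 over all genes tested, of which 21.5% rose and 22.0% fell. HY5 (AT5G11260) had 69.4 and 61.5 CPM in Ler UVA+B, against 4.94 and 5.25 CPM in Ler blue0. HYH (AT3G17609) had 60.4 and 52.0 CPM in Ler UVA+B, against 4.61 and 4.77 CPM in Ler blue0. In both bZIP genes the UVA+B libraries were far above those of blue0, with log2 changes of 3.68 ± 0.28 and 3.58 ± 0.36. RUP1 (AT5G52250) had 42.4 and 40.6 CPM in Ler UVA+B, against 1.15 and 1.43 CPM in Ler blue0, and RUP2 (AT5G23730) had 92.0 and 85.8 CPM in Ler UVA+B, against 2.96 and 2.15 CPM in Ler blue0. The transcripts of these repressors of UVR8 were low under blue0 and changed by 5.00 ± 0.48 and 5.11 ± 0.30. The COP1 complex rose more evenly. COP1 (AT2G32950) had 61.6 and 61.7 CPM in Ler UVA+B, against 33.0 and 34.5 CPM in Ler blue0, 1.83-fold higher, and its partner SPA1 (AT2G46340) had 216 and 198 CPM in Ler UVA+B, against 101 and 96.5 CPM in Ler blue0. DET1 (AT4G10180), a further repressor of light responses, had 87.4 and 94.5 CPM in Ler UVA+B, against 49.4 and 46.3 CPM in Ler blue0. The receptor gene UVR8 (AT5G63860) itself had 113 and 116 CPM in Ler UVA+B, against 125 and 124 CPM in Ler blue0, a difference of -0.13 ± 0.09 that did not pass the test. Adjusted p-values of the risen genes named here lay between 1.53e-10 and 6.55e-06, and that of UVR8 was 0.247 (edgeR quasi-likelihood test, Benjamini-Hochberg).

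B-box proteins are zinc finger cofactors and antagonists of HY5. Of 13 tested, 5 rose (38.5%) and 2 fell (15.4%), beside 21.5% and 22.0% of all genes tested, and the median was 0.88. BBX31 (AT3G21890) had 22.2 and 12.0 CPM in Ler UVA+B, against 1.65 and 1.67 CPM in Ler blue0, and BBX32 (AT3G21150) had 21.5 and 18.2 CPM in Ler UVA+B, against 1.81 and 0.477 CPM in Ler blue0. Both genes were low under blue0, and their replicates spread widely, with log2 changes of 3.35 ± 0.89 and 4.08 ± 1.00. For BBX32 the change was 5.36 without Ler blue0 replicate 1 and 3.46 without Ler blue0 replicate 2. BBX22 (AT1G78600), a positive partner of HY5, had 161 and 176 CPM in Ler UVA+B, against 35.2 and 38.7 CPM in Ler blue0. BBX11 (AT2G47890) showed a log2 change of 1.90 ± 0.19 and BBX24 (AT1G06040), a negative regulator, a change of 0.70 ± 0.13. Against the list, BBX21 (AT1G75540), which activates HY5, fell with a log2 change of -1.35 ± 0.13, with 14.5 and 13.4 CPM in Ler UVA+B, against 39.8 and 31.2 CPM in Ler blue0. BBX4 (AT2G24790) fell with a log2 change of -0.38 ± 0.12 and was not called without Ler blue0 replicate 1 or Ler UVA+B replicate 2. In the edgeR quasi-likelihood test, Benjamini-Hochberg adjusted p-values of these genes lay between 2.16e-10 and 0.0118.

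**Figure D3:**
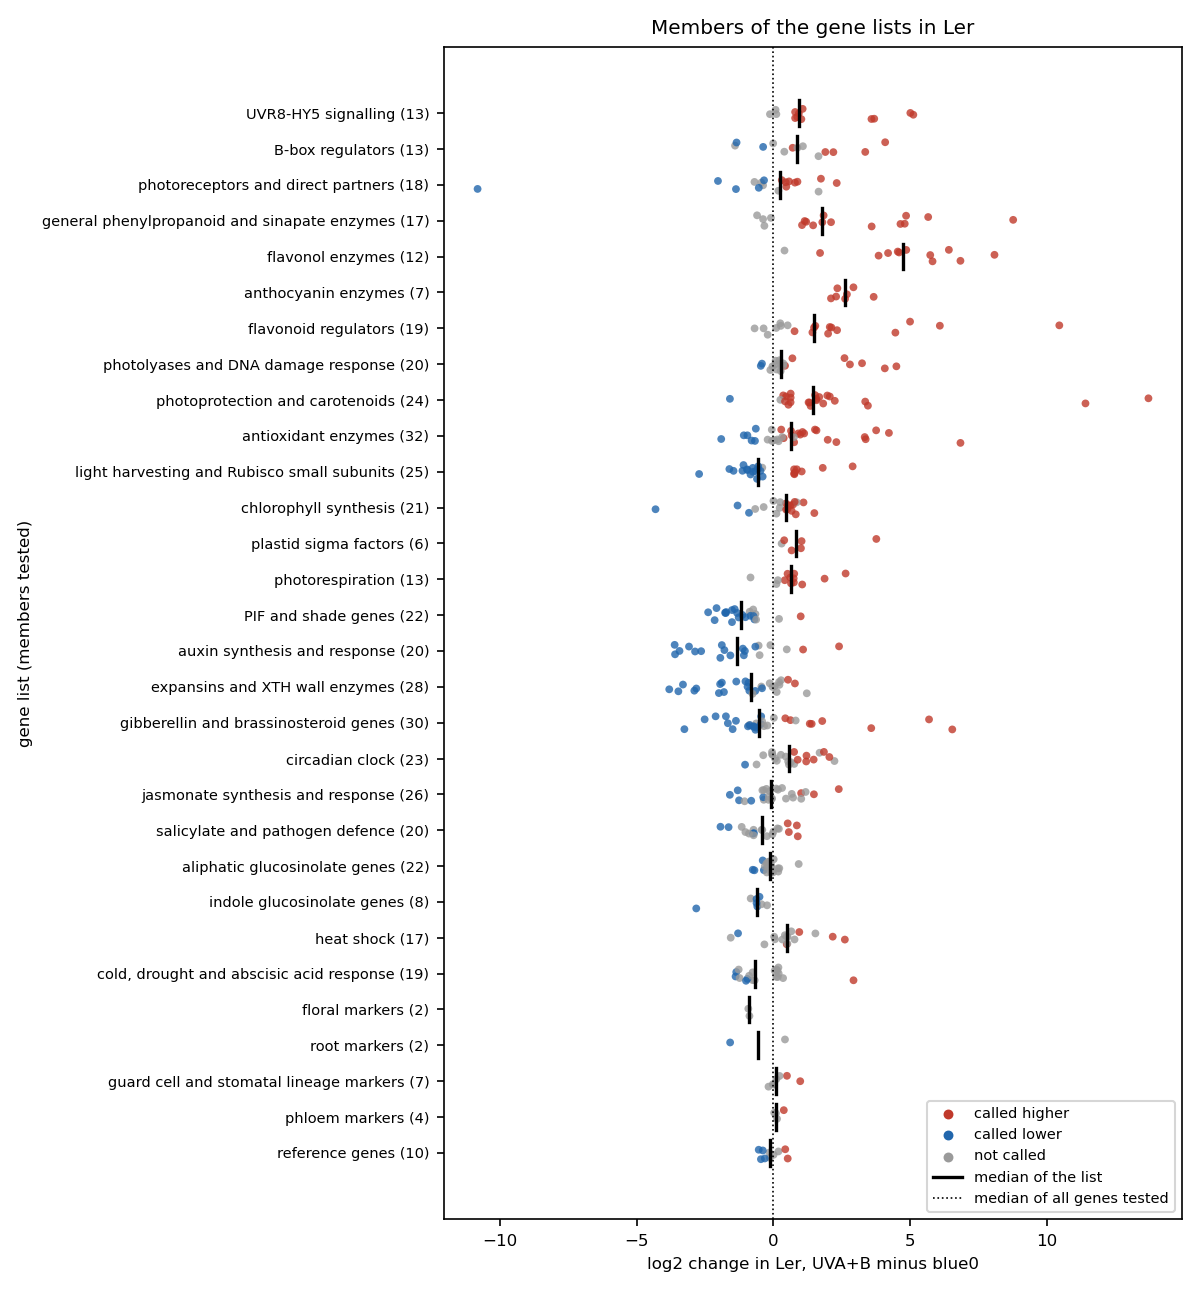
Log2 change of Ler UVA+B minus Ler blue0 (horizontal axis) of each tested member of the 30 gene lists (rows, number tested in brackets), red for called higher, blue for called lower, grey for not called. Black bars mark list medians and the dotted line the median of all genes tested, and the flavonol list stands farthest right at a median of 4.72 while the auxin list stands farthest left at -1.35.

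Genes of photoreceptors and their direct partners moved in both directions, with 8 of 18 risen (44.4%) and 5 fallen (27.8%). Of all genes tested 21.5% rose and 22.0% fell. PHYA (AT1G09570), the far-red receptor phytochrome A, had 30.3 and 32.2 CPM in Ler UVA+B, against 152 and 103 CPM in Ler blue0. Its UVA+B values lay together and under both blue0 values, at a log2 change of -2.03 ± 0.18. PHOT1 (AT3G45780), the phototropin of phototropism, had 189.8 and 171 CPM in Ler UVA+B, against 515 and 416 CPM in Ler blue0 and fell with a change of -1.37 ± 0.12. CRY1 (AT4G08920) had 90.3 and 77.2 CPM in Ler UVA+B, against 135 and 108 CPM in Ler blue0, with a change of -0.54 ± 0.11 in log2. For CRY2 (AT1G04400) the values were 80.3 and 94.5 CPM in Ler UVA+B, against 113 and 115 CPM in Ler blue0, and the difference of -0.38 ± 0.18 did not pass the test (adjusted p = 0.0957, edgeR quasi-likelihood test with Benjamini-Hochberg adjustment). With the replicate number as a block in the fit, CRY2 was at -0.39 and passed (adjusted p = 0.00324, edgeR quasi-likelihood test, Benjamini-Hochberg). The inhibitors of cryptochrome dimers rose. BIC1 (AT3G52740) had 55.8 and 46.8 CPM in Ler UVA+B, against 10.0 and 10.6 CPM in Ler blue0, and BIC2 (AT3G44450) had 221 and 208 CPM in Ler UVA+B, against 61.3 and 67.5 CPM in Ler blue0. Neither pair of libraries overlapped the other, with changes of 2.31 ± 0.21 and 1.74 ± 0.16. ZTL (AT5G57360), an F-box blue-light receptor of the clock, rose with a change of 0.78 ± 0.13. NPH3 (AT5G64330), a phototropism scaffold, fell with a change of -0.34 ± 0.11, and was not called without Ler UVA+B replicate 1 or Ler blue0 replicate 1. Adjusted p-values of the called genes here lay between 1.28e-08 and 0.0117 (edgeR quasi-likelihood test, Benjamini-Hochberg).

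Phenylpropanoid enzymes make the precursors of sinapate esters and flavonoids, which absorb UV in the epidermis. 13 of 17 general phenylpropanoid and sinapate genes rose (76.5%) and 0 fell, with a median log2 change of 1.79. Of all genes tested 21.5% rose and 22.0% fell, at a median of -0.03. The list summed to 9111 and 9123 CPM in Ler UVA+B, against 1038 and 986 CPM in Ler blue0. At the entry of the pathway, PAL2 (AT3G53260), a phenylalanine ammonia-lyase, had 1239 and 1212 CPM in Ler UVA+B, against 51.5 and 46.7 CPM in Ler blue0. C4H (AT2G30490), the next enzyme, had 1107 and 1132 CPM in Ler UVA+B, against 91.9 and 94.2 CPM in Ler blue0. 4CL3 (AT1G65060), the coumarate ligase that feeds flavonoids, had 465 and 497 CPM in Ler UVA+B, against 8.66 and 10.4 CPM in Ler blue0. In all 3 genes the 2 libraries of a group lay close together and the groups far apart, with log2 changes of 4.64 ± 0.29, 3.59 ± 0.23 and 5.65 ± 0.30. Toward sinapate esters, FAH1 (AT4G36220), ferulate 5-hydroxylase, had 498 and 495 CPM in Ler UVA+B, against 121 and 109.9 CPM in Ler blue0. UGT84A2 (AT3G21560), sinapate glucosyltransferase, had 1714 and 1835 CPM in Ler UVA+B, against 55.2 and 72.5 CPM in Ler blue0. Their changes were 2.10 ± 0.14 and 4.80 ± 0.27, and that of CYP98A3 (AT2G40890), coumaroyl shikimate hydroxylase, was 1.79 ± 0.09. By the quasi-likelihood test of edgeR, Benjamini-Hochberg adjusted p-values of these genes lay between 5.48e-12 and 2.17e-10.

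Flavonol genes rose most of the 30 lists by their median, 4.72. Of the 12 tested 11 rose (91.7%) and 0 fell, beside 21.5% and 22.0% of all genes tested. UGT73C6, named after its value was seen, was not called at 0.40 ± 0.43. The list summed to 15941 and 17022 CPM in Ler UVA+B, against 567 and 602 CPM in Ler blue0. CHS (AT5G13930), chalcone synthase and the first enzyme of flavonoid synthesis, had 5081 and 5297 CPM in Ler UVA+B, against 93.9 and 102 CPM in Ler blue0. That is 53.0-fold higher under UVA+B, at a log2 change of 5.73 ± 0.34. CHI (AT3G55120), chalcone isomerase, had 450.2 and 525 CPM in Ler UVA+B, against 19.6 and 22.3 CPM in Ler blue0. FLS1 (AT5G08640), flavonol synthase, had 1572 and 1828 CPM in Ler UVA+B, against 5.04 and 7.58 CPM in Ler blue0. Its blue0 values were the nearest to 0 of these enzymes relative to UVA+B, with a log2 change of 8.08 ± 0.48, and CHI changed by 4.54 ± 0.24. The sugar donors and transferases moved with them. RHM1 (AT1G78570), which makes UDP-rhamnose, had 3088 and 3286 CPM in Ler UVA+B, against 218 and 226 CPM in Ler blue0. UGT89C1 (AT1G06000), a flavonol rhamnosyltransferase, had 1009.8 and 982 CPM in Ler UVA+B, against 51.9 and 57.4 CPM in Ler blue0. UGT78D1 (AT1G30530), which also adds rhamnose, had 315 and 272 CPM in Ler UVA+B, against 83.5 and 96.7 CPM in Ler blue0. Changes were 3.84 ± 0.23 for RHM1, 4.19 ± 0.24 for UGT89C1 and 1.70 ± 0.12 for UGT78D1, the smallest of the 11. Reads may be shared between the tandem copies UGT78D1 to UGT78D3, whose counts are uncertain. The range of adjusted p-values of these genes was between 1.16e-11 and 5.94e-10 (edgeR quasi-likelihood test, Benjamini-Hochberg).

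All 7 anthocyanin genes tested rose, beside 21.5% of all genes tested, with log2 changes of 2.10 to 3.66. The listed gene 5MAT was not analysed here. DFR (AT5G42800), dihydroflavonol reductase, had 201 and 237 CPM in Ler UVA+B, against 43.2 and 46.3 CPM in Ler blue0. TT19 (AT5G17220), a glutathione transferase that carries anthocyanins to the vacuole, had 228 and 241 CPM in Ler UVA+B, against 18.7 and 18.3 CPM in Ler blue0. UGT75C1 (AT4G14090), a glucosyltransferase, had 227 and 245 CPM in Ler UVA+B, against 38.8 and 34.7 CPM in Ler blue0. The UVA+B values exceeded the blue0 values severalfold in every library of these genes, with changes of 2.29 ± 0.23, 3.66 ± 0.23 and 2.68 ± 0.27. UGT79B1 (AT5G54060), AT3AT1 (AT1G03940) and AT3AT2 (AT1G03495), a xylosyltransferase and a pair of acyltransferases, changed by 2.92 ± 0.23, 2.62 ± 0.24 and 2.34 ± 0.20. Among flavonoid regulators 12 of 19 rose (63.2%) and 0 fell, beside 21.5% and 22.0% of all genes tested. The flavonol activators MYB11 (AT3G62610) and MYB111 (AT5G49330) are close relatives of MYB12. MYB11 had 8.56 and 11.7 CPM in Ler UVA+B, against 0.219 and 0.0597 CPM in Ler blue0. MYB111 had 142 and 210.4 CPM in Ler UVA+B, against 5.87 and 10.3 CPM in Ler blue0. They joined MYB12 in being low under blue0, at 6.08 ± 0.52 and 4.46 ± 0.47, and MYB11 was at 7.24 without Ler blue0 replicate 1 and 5.49 without Ler blue0 replicate 2. MYB90 (AT1G66390), an anthocyanin activator, had 8.13 and 10.5 CPM in Ler UVA+B, against 0.274 and 0.298 CPM in Ler blue0. GL3 (AT5G41315), its bHLH partner, changed by 2.12 ± 0.25, and MYB4 (AT4G38620), a repressor of sinapate ester genes, by 1.53 ± 0.19. In the edgeR quasi-likelihood test, Benjamini-Hochberg adjusted p-values of the genes in this group lay between 1.58e-10 and 2.51e-06.

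Genes of light-driven DNA repair rose, while most of the DNA damage response did not pass the test. 7 of 20 rose (35.0%), 2 fell (10.0%) and 11 were not called, with a median of 0.28. The shares over all genes tested were 21.5% risen and 22.0% fallen. PHR1 (AT1G12370), the photolyase of cyclobutane pyrimidine dimers, had 24.8 and 25.6 CPM in Ler UVA+B, against 3.73 and 3.52 CPM in Ler blue0. UVR3 (AT3G15620), the photolyase of (6-4) photoproducts, had 15.6 and 27.6 CPM in Ler UVA+B, against 1.54 and 1.01 CPM in Ler blue0. CRY3 (AT5G24850), an organellar cryptochrome-type photolyase, had 121 and 140.0 CPM in Ler UVA+B, against 5.10 and 6.51 CPM in Ler blue0. For PHR1 and CRY3 the replicates lay close together, and the log2 changes of the 3 genes were 2.79 ± 0.23, 4.07 ± 0.39 and 4.49 ± 0.18. DDB2 (AT5G58760), which recognises UV lesions, had 66.0 and 59.6 CPM in Ler UVA+B, against 6.91 and 6.39 CPM in Ler blue0. RAD52-2 (AT5G47870), a recombination protein, had 105 and 126 CPM in Ler UVA+B, against 19.5 and 18.7 CPM in Ler blue0. Both rose without overlap, at 3.24 ± 0.18 and 2.60 ± 0.12. PARP2 (AT4G02390), a poly(ADP-ribose) polymerase, changed by 0.69 ± 0.14. Against the list, the checkpoint kinase ATM (AT3G48190) and the damage regulator SOG1 (AT1G25580) fell, at -0.46 ± 0.14 and -0.42 ± 0.13, ATM not called without either replicate 1 library and SOG1 not without either replicate 2 library. Transcripts of the cell cycle inhibitors SMR5 and SMR7, targets of SOG1, were too low to test. Adjusted p-values of the called genes lay between 3.24e-13 and 0.0110 (edgeR quasi-likelihood test, Benjamini-Hochberg).

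Photoprotection and carotenoid genes rose in 22 of 24 cases (91.7%) and fell in 1 (4.17%), beside 21.5% and 22.0% of all genes tested. Their median was 1.44, with the ELIP genes at the top. PSBS (AT1G44575), the sensor of non-photochemical quenching, had 5896 and 6291 CPM in Ler UVA+B, against 1537 and 1580.2 CPM in Ler blue0. BCH1 (AT4G25700), a beta-carotene hydroxylase of xanthophyll synthesis, had 266 and 286 CPM in Ler UVA+B, against 22.9 and 27.6 CPM in Ler blue0. VTE1 (AT4G32770), tocopherol cyclase, had 264 and 256 CPM in Ler UVA+B, against 25.9 and 24.9 CPM in Ler blue0. The 4 libraries of each of these genes split cleanly by filter, with changes of 1.97 ± 0.11, 3.45 ± 0.22 and 3.35 ± 0.17. OHP2 (AT1G34000), a single-helix relative of the ELIP proteins, and ZDS (AT3G04870), a carotene desaturase, changed by 2.06 ± 0.11 and 1.57 ± 0.10. The fallen gene was CCD4 (AT4G19170), a carotenoid cleavage dioxygenase, with 98.6 and 43.2 CPM in Ler UVA+B, against 275 and 151 CPM in Ler blue0. Its replicates spread widely, and it was not called without Ler blue0 replicate 1 or Ler UVA+B replicate 2 (log2 change -1.59 ± 0.40, and -2.30 without Ler UVA+B replicate 1). By the quasi-likelihood test of edgeR, Benjamini-Hochberg adjusted p-values of these genes lay between 3.17e-12 and 0.00345.

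Of the antioxidant list, 18 of 32 rose (56.25%) and 6 fell (18.75%), beside 21.5% and 22.0% of all genes tested. The members behaved unlike each other. GPX7 (AT4G31870), a chloroplast glutathione peroxidase, had 246 and 269.5 CPM in Ler UVA+B, against 2.58 and 1.91 CPM in Ler blue0. That made a log2 change of 6.83 ± 0.30, with both blue0 libraries low. Its relative GPX6 (AT4G11600) rose with a change of 1.52 ± 0.14, whereas GPX8 (AT1G63460), GPX5 (AT3G63080) and GPX3 (AT2G43350) fell, at -0.95 ± 0.18, -0.80 ± 0.15 and -0.64 ± 0.14. Vitamin B6 synthesis rose through its catalytic subunits. PDX1.1 (AT2G38230) had 1506 and 1463 CPM in Ler UVA+B, against 93.8 and 127 CPM in Ler blue0. PDX1.3 (AT5G01410) had 1538 and 1406 CPM in Ler UVA+B, against 140.3 and 151 CPM in Ler blue0. PDX2 (AT5G60540), the glutaminase subunit, had 584 and 687 CPM in Ler UVA+B, against 30.6 and 37.7 CPM in Ler blue0. All were far above blue0, at 3.75 ± 0.23, 3.33 ± 0.19 and 4.22 ± 0.22, while PDX1.2 (AT3G16050), the catalytically inactive homologue, fell at -1.08 ± 0.25. Among catalases, CAT3 (AT1G20620) had 2324 and 1669.7 CPM in Ler UVA+B, against 7624 and 7372 CPM in Ler blue0 and fell, with a change of -1.91 ± 0.16. DHAR1 (AT1G19570), dehydroascorbate reductase, fell at -0.68 ± 0.21 and was not called without Ler UVA+B replicate 2 or Ler blue0 replicate 2. The range of adjusted p-values of these genes was between 2.64e-12 and 0.0119 (edgeR quasi-likelihood test, Benjamini-Hochberg).

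Light-harvesting genes split by kind. 16 of 25 members of the light-harvesting and Rubisco small subunit list fell (64.0%) and 8 rose (32.0%), beside 22.0% and 21.5% of all genes tested. The median was -0.57 and the range -2.72 to 2.89. The fallen members were all antenna proteins, among them LHCA4 (AT3G47470) of photosystem I, with 2888 and 2220.2 CPM in Ler UVA+B, against 5573 and 4395 CPM in Ler blue0. Risen were the 4 Rubisco small subunit genes and 4 antenna genes. RBCS1A (AT1G67090) had 15435 and 15407 CPM in Ler UVA+B, against 9525 and 8448 CPM in Ler blue0, and RBCS3B (AT5G38410) had 6199 and 6358 CPM in Ler UVA+B, against 3686 and 3759 CPM in Ler blue0. These small subunits lay above blue0 in every library, with changes of 0.78 ± 0.10 and 0.75 ± 0.16, and RBCS1B (AT5G38430) and RBCS2B (AT5G38420) changed by 0.85 ± 0.19 and 0.77 ± 0.20, the last not called without Ler blue0 replicate 1. LHCB7 (AT1G76570), a rare antenna type, had 88.4 and 89.6 CPM in Ler UVA+B, against 12.1 and 11.8 CPM in Ler blue0. LHCB4.3 (AT2G40100), the light-inducible CP29 form, had 153 and 151 CPM in Ler UVA+B, against 44.8 and 42.4 CPM in Ler blue0. Both stood apart from the fallen antenna genes, at 2.89 ± 0.18 and 1.80 ± 0.20, as did LHCA5 (AT1G45474) and LHCA6 (AT1G19150) at 1.03 ± 0.11 and 0.75 ± 0.14. The number fallen was 6 without Ler blue0 replicate 1 and 7 without Ler UVA+B replicate 2, and counts within the LHCB1 and RBCS families are uncertain because their copies share reads. In the edgeR quasi-likelihood test, Benjamini-Hochberg adjusted p-values of the named genes lay between 6.02e-11 and 0.00371.

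Chlorophyll synthesis rose at 11 of 21 genes (52.4%) and fell at 3 (14.3%), beside 21.5% and 22.0% of all genes tested. GUN5 (AT5G13630), the chelatase subunit that starts the magnesium branch, had 3756 and 3522 CPM in Ler UVA+B, against 1489.8 and 1094 CPM in Ler blue0. HEMA1 (AT1G58290), glutamyl-tRNA reductase, had 682 and 593 CPM in Ler UVA+B, against 336 and 259.7 CPM in Ler blue0. Both rose clear of the replicate spread, at 1.49 ± 0.20 and 1.10 ± 0.19. Besides PORA the fallen genes were PORB (AT4G27440) at -0.89 ± 0.23 and GLK1 (AT2G20570), a GARP factor of chloroplast development, at -1.31 ± 0.32. GLK1 was not called without Ler UVA+B replicate 2, and the number of risen genes was 7 without Ler blue0 replicate 1 and 6 without Ler UVA+B replicate 2. Of the plastid sigma factors, which give the plastid RNA polymerase its promoters, 5 of 6 rose. SIG5 (AT5G24120), the blue-light-induced member, had 415 and 303 CPM in Ler UVA+B, against 31.9 and 21.1 CPM in Ler blue0. Its 2 UVA+B libraries differed from each other but lay far above blue0, at 3.76 ± 0.68, while SIG2 (AT1G08540) and SIG6 (AT2G36990) changed by 1.00 ± 0.13 and 1.03 ± 0.14. SIG3 (AT3G53920) and SIG4 (AT5G13730), at 0.39 ± 0.12 and 0.66 ± 0.24, were not called without Ler blue0 replicate 1 or Ler UVA+B replicate 2, which left 3 risen sigma factors. Photorespiration rose at 10 of 13 genes and fell at 0. GLDP1 (AT4G33010) encodes the P-protein of mitochondrial glycine decarboxylase and had 5888 and 5702 CPM in Ler UVA+B, against 934 and 930.1 CPM in Ler blue0. The replicates were within a few percent of each other, and the change was 2.64 ± 0.22, with GLDP2 (AT2G26080), its homologue, at 1.87 ± 0.25 and GLU1 (AT5G04140), the ferredoxin glutamate synthase, at 1.05 ± 0.12. Adjusted p-values of the named genes lay between 3.97e-09 and 0.0299 (edgeR quasi-likelihood test, Benjamini-Hochberg).

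Growth genes of the shade response fell. Of the PIF and shade list 16 of 22 fell (72.7%) and 1 rose (4.55%), with a median of -1.20. Over all genes tested, the shares for this and the auxin list to compare with were 22.0% fallen and 21.5% risen. PIF4 (AT2G43010) had 25.5 and 20.0 CPM in Ler UVA+B, against 85.0 and 69.6 CPM in Ler blue0. PIF5 (AT3G59060) had 35.1 and 27.1 CPM in Ler UVA+B, against 86.6 and 63.3 CPM in Ler blue0. Both bHLH factors lay lower under UVA+B in every library, with changes of -1.77 ± 0.14 and -1.27 ± 0.20. HAT2 (AT5G47370), an HD-ZIP factor induced by shade and auxin, had 10.3 and 8.32 CPM in Ler UVA+B, against 46.7 and 31.8 CPM in Ler blue0, and changed by -2.08 ± 0.26. PIL1 (AT2G46970), a classical shade marker, had 18.3 and 12.4 CPM in Ler UVA+B, against 32.0 and 16.2 CPM in Ler blue0, with groups that overlapped and a difference of -0.66 ± 0.42 that did not pass the test (adjusted p = 0.221, edgeR quasi-likelihood test with Benjamini-Hochberg adjustment). With the replicate number as a block in the fit, PIL1 was at -0.62 and passed (adjusted p = 0.00414, edgeR quasi-likelihood test, Benjamini-Hochberg). The risen member was BEE1 (AT1G18400), a brassinosteroid-enhanced bHLH protein. It had 32.9 and 36.2 CPM in Ler UVA+B, against 17.0 and 17.7 CPM in Ler blue0, and a change of 1.00 ± 0.15. Auxin genes fell at 14 of 20 and rose at 2, with a median of -1.35, and 9 fell without Ler blue0 replicate 1. YUC8 (AT4G28720), a flavin monooxygenase of auxin synthesis that PIF4 activates, had 0.642 and 0.512 CPM in Ler UVA+B, against 7.51 and 5.01 CPM in Ler blue0. IAA29 (AT4G32280), an auxin-induced repressor, had 2.43 and 1.09 CPM in Ler UVA+B, against 24.0 and 18.4 CPM in Ler blue0. IAA19 (AT3G15540) had 1.71 and 1.66 CPM in Ler UVA+B, against 16.6 and 12.1 CPM in Ler blue0. For all 3 the UVA+B libraries were a small part of blue0, with changes of -3.43 ± 0.51, -3.61 ± 0.50 and -3.09 ± 0.41, and that of IAA29 was -4.28 without Ler UVA+B replicate 1. GH3.3 (AT2G23170), which conjugates auxin, and IAA7 (AT3G23050) fell at -2.86 ± 0.34 and -1.89 ± 0.17, while IAA17 (AT1G04250) and IAA6 (AT1G52830) rose at 1.08 ± 0.12 and 2.40 ± 0.59. By the quasi-likelihood test of edgeR, Benjamini-Hochberg adjusted p-values of the called genes lay between 2e-09 and 0.00237.

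Cell wall loosening genes followed the same direction at 16 of 28 members (57.1%), with 2 risen (7.14%) and a median of -0.82. The shares over all genes tested were 22.0% fallen and 21.5% risen. EXPA8 (AT2G40610), an expansin, had 3.00 and 2.62 CPM in Ler UVA+B, against 36.5 and 19.0 CPM in Ler blue0. XTH15 (AT4G14130), a xyloglucan endotransglucosylase, had 0.499 and 0.768 CPM in Ler UVA+B, against 10.3 and 4.00 CPM in Ler blue0. XTH4 (AT2G06850) had 33.5 and 36.6 CPM in Ler UVA+B, against 143 and 136 CPM in Ler blue0. The blue0 libraries of EXPA8 and XTH15 differed from each other yet lay above both UVA+B libraries, at -3.31 ± 0.41 and -3.47 ± 0.46, and XTH4 changed by -1.99 ± 0.15. Without Ler blue0 replicate 1 the change of XTH15 was -2.63. XTH33 (AT1G10550), EXPA11 (AT1G20190), EXPA3 (AT2G37640) and XTH8 (AT1G11545) fell at -3.81 ± 0.56, -1.89 ± 0.17, -1.36 ± 0.11 and -1.81 ± 0.12. XTH31 (AT3G44990) rose at 0.78 ± 0.19 and XTH24 (AT4G30270) at 0.53 ± 0.15, the last not called without either replicate 1 library. The range of adjusted p-values of these genes was between 2.6e-10 and 0.00661 (edgeR quasi-likelihood test, Benjamini-Hochberg).

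Gibberellin and brassinosteroid genes fell at 15 of 30 (50.0%) and rose at 8 (26.7%), beside 22.0% and 21.5% of all genes tested. Of the 4 genes tested for the 2-oxidases that inactivate gibberellin, 3 rose. GA2OX8 (AT4G21200) had 40.4 and 51.1 CPM in Ler UVA+B, against 0.439 and 0.537 CPM in Ler blue0. GA2OX1 (AT1G78440) had 30.2 and 29.4 CPM in Ler UVA+B, against 0.384 and 0.776 CPM in Ler blue0. GA2OX2 (AT1G30040) had 55.3 and 61.7 CPM in Ler UVA+B, against 5.15 and 4.66 CPM in Ler blue0. These 3 genes were at or below 5.15 CPM in both blue0 libraries, and changed by 6.53 ± 0.33, 5.68 ± 0.34 and 3.57 ± 0.24. The remaining member, GA2OX6 (AT1G02400), named after its value was seen, was at -0.89 ± 0.38 and did not pass (adjusted p = 0.0632, edgeR quasi-likelihood test with Benjamini-Hochberg adjustment). GA3OX1 (AT1G15550), which makes active gibberellin, rose at 1.33 ± 0.29, and the receptor gene GID1B (AT3G63010) at 1.78 ± 0.27. GAI (AT1G14920) and RGL1 (AT1G66350) encode DELLA repressors of gibberellin response. GAI had 17.0 and 15.0 CPM in Ler UVA+B, against 55.1 and 46.2 CPM in Ler blue0, and RGL1 had 8.70 and 9.02 CPM in Ler UVA+B, against 28.6 and 30.6 CPM in Ler blue0. Both fell without overlap, at -1.67 ± 0.12 and -1.74 ± 0.17. BES1 (AT1G19350), a brassinosteroid response factor, had 24.6 and 24.8 CPM in Ler UVA+B, against 117 and 97.0 CPM in Ler blue0 and fell at -2.11 ± 0.13, while ROT3 (AT4G36380) and DET2 (AT2G38050) of brassinosteroid synthesis rose at 1.40 ± 0.26 and 0.62 ± 0.15. GID1A (AT3G05120) rose at 0.43 ± 0.13 and was not called without either replicate 1 library. In the edgeR quasi-likelihood test, Benjamini-Hochberg adjusted p-values of these genes lay between 4.11e-12 and 0.0124.

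Clock genes rose at 7 of 23 (30.4%) and fell at 1 (4.35%), beside 21.5% and 22.0% of all genes tested. In the list, 4 rose without Ler blue0 replicate 1 or Ler blue0 replicate 2. GI (AT1G22770), an afternoon gene, had 249 and 308 CPM in Ler UVA+B, against 113 and 128 CPM in Ler blue0. TOC1 (AT5G61380), an evening repressor, had 174 and 306 CPM in Ler UVA+B, against 47.7 and 86.2 CPM in Ler blue0. The GI groups were well apart at 1.21 ± 0.17, whereas TOC1 had a wide spread in both groups at 1.84 ± 0.59 and was not called without Ler blue0 replicate 1 or Ler UVA+B replicate 2. ELF3 (AT2G25930), of the evening complex, and LNK1 (AT5G64170), a coactivator, changed by 1.20 ± 0.28 and 0.89 ± 0.24, RVE4 (AT5G02840) by 0.75 ± 0.22 with the call lost without Ler UVA+B replicate 1 or Ler blue0 replicate 2, and CHE (AT5G08330), a TCP repressor of CCA1, fell at -1.04 ± 0.14. CCA1 (AT2G46830), a morning gene, had 17.1 and 7.68 CPM in Ler UVA+B, against 10.7 and 4.95 CPM in Ler blue0. Its replicates differed more than its groups, and the difference of 0.64 ± 0.92 did not pass the test (adjusted p = 0.610, edgeR quasi-likelihood test with Benjamini-Hochberg adjustment). With the replicate number as a block in the fit, its change was 0.65 and passed (adjusted p = 0.0330, edgeR quasi-likelihood test, Benjamini-Hochberg). In both groups replicate 1 of CCA1 was the higher and replicate 1 of TOC1 the lower, and the field blocks were sampled 1 after another. Whether harvest time moved these values was not tested. Adjusted p-values of the called clock genes lay between 5.93e-06 and 0.0184 (edgeR quasi-likelihood test, Benjamini-Hochberg).

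Counts in the defence lists changed with single libraries. Jasmonate genes rose at 3 of 26 (11.5%) and fell at 5 (19.2%), neither above the 21.5% and 22.0% of all genes tested, and summed to 8858 and 4741 CPM in Ler UVA+B, against 7531 and 7425 CPM in Ler blue0. Ler UVA+B replicate 2 had the lowest sum of the 4, and the number fallen was 13 without Ler UVA+B replicate 1, 2 without Ler UVA+B replicate 2 and 3 without Ler blue0 replicate 2. The number risen was 5 without Ler UVA+B replicate 2. JAZ9 (AT1G70700), a jasmonate repressor, had 776 and 470.0 CPM in Ler UVA+B, against 205 and 243 CPM in Ler blue0. VSP1 (AT5G24780), a storage protein induced by jasmonate, had 2042 and 1269.8 CPM in Ler UVA+B, against 259 and 375 CPM in Ler blue0. Both lay above blue0 in every library, at 1.48 ± 0.24 and 2.39 ± 0.51, with VSP1 counts uncertain because VSP2 is nearly identical. AOC4 (AT1G13280), an allene oxide cyclase, fell at -1.59 ± 0.12. Salicylate and defence genes rose at 4 of 20 (20.0%) and fell at 4 (20.0%), close to the shares of all genes tested, summing to 692 and 401 CPM in Ler UVA+B, against 524 and 786 CPM in Ler blue0. Here the groups overlapped, and the number fallen was 9 without Ler UVA+B replicate 1 and 0 without Ler UVA+B replicate 2 or Ler blue0 replicate 2, while the number risen was 1 without either replicate 1 library. NPR1 (AT1G64280), the salicylate receptor gene, had 38.8 and 35.7 CPM in Ler UVA+B, against 24.9 and 27.0 CPM in Ler blue0 and rose at 0.52 ± 0.11 in all 4 such fits. WRKY18 and PR5 were called but not without either replicate 1 library, and PAD3, WRKY38, WRKY70 and EDS1 were called but not without either replicate 2 library. Aliphatic glucosinolate genes fell at 4 of 22 (18.2%), no more often than the 22.0% of all genes tested, and rose at 0, with 2 fallen without either replicate 2 library. MYB28 (AT5G61420), their main activator, had 89.0 and 88.0 CPM in Ler UVA+B, against 156 and 131 CPM in Ler blue0 and fell at -0.70 ± 0.12, and AOP3 (AT4G03050), a side-chain dioxygenase, fell at -0.76 ± 0.11. Indole glucosinolate genes fell at 5 of 8, at 8 without Ler UVA+B replicate 1 and at 2 without Ler UVA+B replicate 2 or Ler blue0 replicate 2. MYB51 (AT1G18570), their activator, had 1.28 and 0.576 CPM in Ler UVA+B, against 5.54 and 7.52 CPM in Ler blue0 and fell at -2.82 ± 0.39 (-3.48 without Ler UVA+B replicate 1), and UGT74B1 (AT1G24100), a thiohydroximate glucosyltransferase, at -0.59 ± 0.12. By the quasi-likelihood test of edgeR, Benjamini-Hochberg adjusted p-values of these genes lay between 1.56e-09 and 0.00107.

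Heat shock genes rose at 4 of 17 (23.5%), close to the 21.5% of all genes tested, and fell at 1, and HSFB1 was not analysed here. HSP17.6II (AT5G12020), a small heat shock protein, had 5.49 and 6.46 CPM in Ler UVA+B, against 0.768 and 1.19 CPM in Ler blue0 and rose at 2.61 ± 0.43. ROF1 (AT3G25230), a co-chaperone, rose at 0.48 ± 0.09. Calls of HSP70 (AT3G12580) at 0.94 ± 0.36, GolS1 (AT2G47180), a galactinol synthase, at 2.17 ± 0.61 and HSFB2A (AT5G62020) at -1.29 ± 0.48 depended on single libraries. HSP70 was called in none of the 4 fits that leave out a library, GolS1 not without Ler UVA+B replicate 1 or Ler blue0 replicate 2, and HSFB2A in only that without Ler UVA+B replicate 1. Without this library GolS1 was at 1.39 and HSFB2A at -2.25, and HSFB2A was at -0.69 without Ler UVA+B replicate 2. The number risen was 2 without Ler UVA+B replicate 1 or Ler blue0 replicate 2. Of the cold, drought and abscisic acid list 4 of 19 fell (21.1%), close to the 22.0% of all genes tested, and 1 rose, and CBF1 was not analysed here. DREB2A (AT5G05410), a factor of drought and heat responses, had 40.0 and 38.4 CPM in Ler UVA+B, against 4.55 and 5.79 CPM in Ler blue0. It stood apart from the rest of the list, at 2.93 ± 0.28. The dehydrins COR47 (AT1G20440) and ERD10 (AT1G20450) fell at -1.36 ± 0.21 and -1.38 ± 0.23, and RD29A (AT5G52310) fell as well. CBF2 (AT4G25470), a cold response factor of tandem copies with uncertain counts, was called at -0.95 ± 0.32 and kept in only the fit without Ler blue0 replicate 2, and 7 members fell without Ler UVA+B replicate 1. The range of adjusted p-values of these genes was between 8.59e-08 and 0.0426 (edgeR quasi-likelihood test, Benjamini-Hochberg).

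Among markers of other cell types, those of guard cells and the stomatal lineage rose at 2 of 7 (28.6%), KAT1 (AT5G46240) at 0.49 ± 0.13 and MUTE (AT3G06120) at 0.98 ± 0.33, and summed to 137 and 121 CPM in Ler UVA+B, against 116 and 99.2 CPM in Ler blue0. Phloem markers rose at 1 of 4, AHA3 (AT5G57350) at 0.38 ± 0.14, and summed to 439 and 436 CPM in Ler UVA+B, against 412 and 325 CPM in Ler blue0. Of all genes tested 21.5% rose, and both lists lay near that share. KAT1 and AHA3 were not called without Ler UVA+B replicate 1 or Ler blue0 replicate 2, and MUTE not without either replicate 2 library. Of the root markers, WOX5 (AT3G11260), a stem cell regulator of the root tip, was called lower at -1.58 ± 0.52 with 0.285 and 0.384 CPM in Ler UVA+B, against 1.26 and 0.776 CPM in Ler blue0, and was kept in only the fit without Ler blue0 replicate 2. Reference genes of quantitative PCR rose at 2 of 10 (20.0%) and fell at 4 (40.0%), beside 21.5% and 22.0% of all genes tested. ACT2 (AT3G18780), an actin gene, had 596 and 618 CPM in Ler UVA+B, against 399 and 447 CPM in Ler blue0 and rose at 0.52 ± 0.10 in every such fit. EF1A (AT5G60390) was called at 0.43 ± 0.14, UBC21 (AT5G25760) at -0.39 ± 0.11, UBC9 (AT4G27960) at -0.46 ± 0.15, YLS8 (AT5G08290) at -0.32 ± 0.10 and UBQ10 (AT4G05320) at -0.54 ± 0.21, and UBQ10 was not called under relative log expression scaling. EF1A, YLS8 and UBQ10 were called in only the fit without Ler UVA+B replicate 1, UBC21 not without either replicate 1 library, and UBC9 not without Ler blue0 replicate 1 or Ler UVA+B replicate 2. In the edgeR quasi-likelihood test, Benjamini-Hochberg adjusted p-values of these genes lay between 0.000202 and 0.0445.

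The 3 filters between blue0 and UVA+B showed where along the series the levels moved, as means ± SD of 2 libraries in CPM. CIB1 had 13.4 ± 1.01 under blue0, 0.0410 ± 0.0580 under UV0, 0.289 ± 0.321 under UVA350, 0 counts in both libraries of UVA and of UVA+B. Nearly all of its fall lay at the step to UV0. XTH15 had 7.15 ± 4.46 under blue0, 1.26 ± 0.415 under UV0, 0.824 ± 0.202 under UVA350, 1.04 ± 0.0124 under UVA and 0.634 ± 0.190 under UVA+B, and PHYA had 128 ± 34.3 under blue0, 36.3 ± 3.72 under UV0, 39.0 ± 2.35 under UVA350, 31.3 ± 0.0332 under UVA and 31.3 ± 1.36 under UVA+B. Their levels under UV0, UVA350, UVA and UVA+B were much closer to each other than to blue0. CHS had 97.8 ± 5.57 under blue0, 844 ± 178 under UV0, 689 ± 117 under UVA350, 1699.6 ± 487 under UVA and 5189 ± 153 under UVA+B. The libraries of UV0 and UVA350 overlapped, and those of UVA and UVA+B did not. MYB12 had 0.0548 ± 0.0775 under blue0, 2.19 ± 0.778 under UV0, 1.36 ± 0.0831 under UVA350, 16.0 ± 4.85 under UVA and 90.0 ± 10.0 under UVA+B, and UVR3 had 1.27 ± 0.368 under blue0, 1.35 ± 0.515 under UV0, 1.54 ± 0.895 under UVA350, 3.80 ± 0.248 under UVA and 21.6 ± 8.45 under UVA+B. For UVR3 the blue0, UV0 and UVA350 libraries overlapped, and the rise lay in the UVA and UVA+B libraries. HY5 had 5.09 ± 0.224 under blue0, 17.0 ± 2.50 under UV0, 24.5 ± 1.23 under UVA350, 37.5 ± 2.88 under UVA and 65.4 ± 5.61 under UVA+B. No 2 neighbouring filters overlapped in HY5, whose order of levels followed the order of the filters. GPX7 had 2.24 ± 0.472 under blue0, 52.3 ± 4.55 under UV0, 62.7 ± 0.164 under UVA350, 130.3 ± 14.7 under UVA and 258 ± 16.6 under UVA+B. SIG5 had 26.5 ± 7.59 under blue0, 88.6 ± 32.5 under UV0, 115 ± 55.9 under UVA350, 188 ± 75.0 under UVA and 359 ± 79.5 under UVA+B. Its UVA350 libraries overlapped those of UV0 and of UVA, while blue0 and UVA+B lay apart from their neighbours. IAA29 had 21.2 ± 3.98 under blue0, 9.36 ± 0.561 under UV0, 8.22 ± 0.143 under UVA350, 4.65 ± 2.11 under UVA and 1.76 ± 0.946 under UVA+B, in falling order of the means, with no overlap between neighbours. These orders are descriptions, since only the ends of the series and the pair below were tested.

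**Figure D4:**
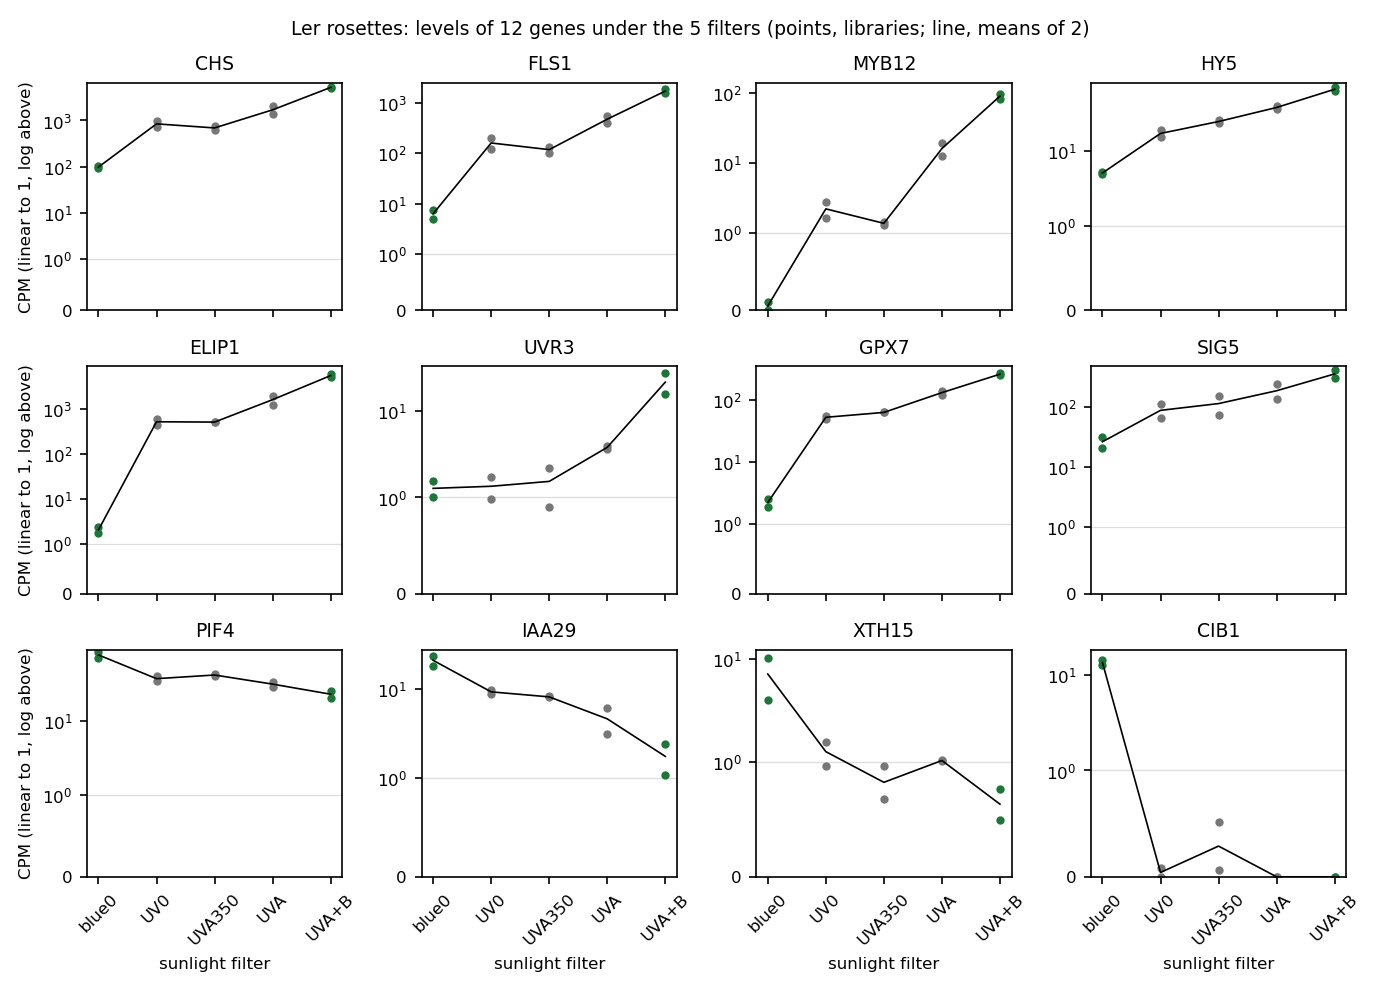
Level in CPM (vertical axis, linear to 1 and logarithmic above) of 12 genes in Ler under the 5 filters from blue0 to UVA+B (horizontal axis), with points for the 2 libraries of each filter, green for the groups of the comparison and grey for the others, and a line through the means. CIB1 and XTH15 drop at the step to UV0, UVR3 climbs at the steps to UVA and UVA+B, and HY5 climbs at every step.

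The UVA and UV0 libraries of Ler do not enter the full comparison and gave a separate reading of its genes. UVA minus UV0 called 687 genes (3.44%), 400 higher (2.0%) and 287 lower (1.44%). Of the 4298 genes that rose under UVA+B against blue0, 76.7% had a log2 difference above 0 between UVA and UV0, with a median of 0.18. Over all genes tested the share above 0 was 49.2%. Of the 4399 fallen genes, 77.7% lay below 0, with a median of -0.19, against 50.8% over all genes tested. Genes are not independent of each other, so that these shares are descriptions. Among the named genes, UVA minus UV0 was 2.82 ± 0.46 in log2 for MYB12, 1.89 ± 0.29 for GA2OX8, 1.31 ± 0.22 for GPX7, 1.08 ± 0.16 for CRY3 and 1.15 ± 0.25 for HY5. All 5 were called, with adjusted p-values between 0.00141 and 0.0173 (edgeR quasi-likelihood test, Benjamini-Hochberg). Without Ler UV0 replicate 2 none of the 5 was called, and GA2OX8 and CRY3 were in the other 3 such fits. HY5 was called in none of these fits, and MYB12 and GPX7 in only that without Ler UVA replicate 2. Of the named genes only CYP98A3 was called in every such fit, with a difference of 0.67 to 0.76. For CHS UVA minus UV0 was 1.01 ± 0.28 and for PIF4 -0.24 ± 0.14, which did not pass (adjusted p = 0.0531 and 0.352, edgeR quasi-likelihood test). The number called was 79 without Ler UVA replicate 1, 106 without Ler UVA replicate 2, 134 without Ler UV0 replicate 1 and 11 without Ler UV0 replicate 2, which leaves this contrast resting on each of its 4 libraries.

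The same contrast of filters in the mutants showed where the wild type differed. Between Ler and uvr8-2 the response differed in 229 genes (1.15%), 141 with a difference above 0 (0.706%) and 88 below (0.44%), by edgeR's interaction contrast at a Benjamini-Hochberg adjusted p under 0.05, and in 2795 at an unadjusted p under 0.05. Of the 141, 140 rose in Ler, and the median log2 change was 2.24 in Ler and 0.94 in uvr8-2. Of the 88, 86 fell in Ler, with medians of -1.30 in Ler and -0.34 in uvr8-2. Both sets were chosen by this difference, which fixed the order of the medians in advance. Among the gene lists, 8 of 12 flavonol, 8 of 17 phenylpropanoid and sinapate, 4 of 7 anthocyanin and 3 of 20 photolyase and DNA damage genes had a larger response in Ler. These counts moved with single libraries, to between 3 and 7 for flavonol genes, 3 and 8 for phenylpropanoid and sinapate genes, 1 and 3 for anthocyanin genes and 1 and 3 for photolyase and DNA damage genes over the 8 fits that leave out a library. Without Ler blue0 replicate 1, uvr8-2 UVA+B replicate 1 or uvr8-2 blue0 replicate 1 only 3 flavonol genes were left, and without Ler UVA+B replicate 2 or Ler blue0 replicate 2 there were 4, and without uvr8-2 blue0 replicate 2 there were 5. Phenylpropanoid and sinapate genes numbered 3 without Ler blue0 replicate 2 or uvr8-2 blue0 replicate 1, and 4 without Ler UVA+B replicate 2, Ler blue0 replicate 1 or uvr8-2 UVA+B replicate 1. Anthocyanin genes numbered 1 or 2 in every such fit but that without uvr8-2 blue0 replicate 2, which gave 3, and photolyase and DNA damage genes kept the count of 3 only without Ler UVA+B replicate 1 or uvr8-2 UVA+B replicate 2. CHS changed by 5.73 ± 0.34 in Ler and 3.87 ± 0.31 in uvr8-2, a difference of 1.86 ± 0.40. FLS1 changed by 8.08 ± 0.48 in Ler and 5.59 ± 0.43 in uvr8-2. Both genes rose in both genotypes, by unequal amounts. Each of these differences was called in 2 of 8 fits that leave out a library, for CHS those without Ler UVA+B replicate 1 or uvr8-2 blue0 replicate 2, and for FLS1 those without Ler UVA+B replicate 1 or uvr8-2 UVA+B replicate 2. RAD52-2 changed by 2.60 ± 0.12 in Ler and 0.89 ± 0.12 in uvr8-2, a difference of 1.71 ± 0.16 with the smallest adjusted p of the named genes, 1.72e-05 (edgeR quasi-likelihood test, Benjamini-Hochberg). UVR3 changed by 4.07 ± 0.39 in Ler and 1.16 ± 0.43 in uvr8-2, a difference not called without Ler UVA+B replicate 2, Ler blue0 replicate 2, uvr8-2 UVA+B replicate 1 or uvr8-2 blue0 replicate 1. EXPA11 changed by -1.89 ± 0.17 in Ler and -0.29 ± 0.16 in uvr8-2, a difference of -1.60 ± 0.23. The expansin thus fell in Ler and was not called in uvr8-2, and this difference itself passed the test at an adjusted p of 0.000927 (edgeR quasi-likelihood test, Benjamini-Hochberg). The differences of RAD52-2 and EXPA11 were called in all 8 fits that leave out a library. The same held for C4H, 4CL3, CHI, RHM1, UGT89C1 and TT19. Their differences over these fits were 1.59 to 1.76 for C4H, 2.08 to 2.56 for 4CL3 and 1.68 to 1.90 for CHI. They were 1.72 to 2.12 for RHM1, 1.87 to 2.08 for UGT89C1 and 1.65 to 2.00 for TT19. The other called differences among named genes of these lists, such as CHS and FLS1, were lost in at least 1 such fit. Smaller responses in uvr8-2 were also found for GA2OX8, at 6.53 ± 0.33 in Ler and 4.00 ± 0.34 in uvr8-2, BES1, at -2.11 ± 0.13 in Ler and -1.19 ± 0.12 in uvr8-2, and PHOT1, at -1.37 ± 0.12 in Ler and -0.66 ± 0.12 in uvr8-2. These differences were called in 2 of 8 such fits for GA2OX8, 5 of 8 for BES1 and 3 of 8 for PHOT1, and each was lost without Ler blue0 replicate 1, Ler UVA+B replicate 2 or uvr8-2 UVA+B replicate 1. GA2OX8 was lost also without Ler blue0 replicate 2, and GA2OX8 and PHOT1 also without either uvr8-2 blue0 library.

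Several genes of the pathway had differences between Ler and uvr8-2 that did not pass the test in the fit without a replicate block. With the replicate number as a block the number of genes called for this difference was 810, beside 229. Values of the genes below in that fit are not given here. HY5 changed by 3.68 ± 0.28 in Ler and 2.59 ± 0.27 in uvr8-2, a difference of 1.09 ± 0.38 (adjusted p = 0.187, edgeR quasi-likelihood test with Benjamini-Hochberg adjustment). The differences, Ler minus uvr8-2, were 1.44 ± 0.42 for RUP2, 1.73 ± 0.74 for RUP1, 3.80 ± 2.19 for MYB12, 2.01 ± 0.70 for ELIP1 and -2.51 ± 0.65 for IAA29, with adjusted p-values between 0.0689 and 0.455 (edgeR quasi-likelihood test, Benjamini-Hochberg). PIF4 changed by -1.77 ± 0.14 in Ler and -1.34 ± 0.14 in uvr8-2, and PORA by -4.31 ± 0.59 in Ler and -3.42 ± 0.50 in uvr8-2. The number of genes with a difference moved with single libraries, to 72, 84 and 107 without Ler UVA+B replicate 2, Ler blue0 replicate 1 and Ler blue0 replicate 2. It was 71, 127 and 102 without uvr8-2 UVA+B replicate 1, uvr8-2 blue0 replicate 1 and uvr8-2 blue0 replicate 2. Without uvr8-2 UVA+B replicate 2 it was 646, and without Ler UVA+B replicate 1 it was 272.

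Between Ler and cry1cry2 the response differed in 2 genes (0.01%) and in 1057 at an unadjusted p under 0.05, by the same edgeR test, and DESeq2 called 44. AT1G16260, a wall-associated kinase family member, changed by 2.37 ± 0.19 in Ler and 0.78 ± 0.17 in cry1cry2. ATSPS4F (AT4G10120), a putative sucrose-phosphate synthase, had a change of -0.21 ± 0.18 in Ler and -1.75 ± 0.18 in cry1cry2. The first rose in both genotypes, and the second fell in cry1cry2 while its Ler difference did not pass the test. The differences between genotypes were 1.59 ± 0.25 and 1.55 ± 0.25, called in 3 and 2 of 8 fits that leave out a library, both without Ler UVA+B replicate 2 or Ler blue0 replicate 2, and AT1G16260 also without cry1cry2 UVA+B replicate 1. HY5 changed by 3.68 ± 0.28 in Ler and 2.65 ± 0.25 in cry1cry2, a difference of 1.03 ± 0.36, which did not pass (adjusted p = 0.671, edgeR quasi-likelihood test with Benjamini-Hochberg adjustment). CHS changed by 5.73 ± 0.34 in Ler and 6.24 ± 0.35 in cry1cry2. Of all genes tested, uvr8-2 called 4790 (24.0%) between UVA+B and blue0, or 3060 without uvr8-2 UVA+B replicate 2, and cry1cry2 called 8620 (43.1%). Spread between the 2 libraries of a group, as chi-square per degree of freedom, was 11.1 for Ler blue0 and 18.0 for Ler UVA+B. For blue0 and UVA+B it was 42.8 and 26.0 in uvr8-2, and 15.0 and 27.2 in cry1cry2. The fit shared its dispersion over all groups, so that these counts are not equally precise. Of all genes, 12.9% rose and 11.1% fell in uvr8-2, and 20.4% rose and 22.8% fell in cry1cry2. Ler and uvr8-2 shared 2214 risen genes, 51.5% of those of Ler and 86.2% of those of uvr8-2, and 1906 fallen genes, 43.3% and 85.8%. Ler and cry1cry2 shared 3406 risen genes, 79.2% and 83.7% of each list, and 3484 fallen genes, 79.2% and 76.5%. The median log2 change of the 4298 risen genes of Ler was 0.75 in Ler, 0.45 in uvr8-2 and 0.64 in cry1cry2. For the 4399 fallen genes it was -0.71 in Ler, -0.39 in uvr8-2 and -0.66 in cry1cry2. Values in Ler chose these genes and are no measure of the difference between genotypes.

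**Figure D5:**
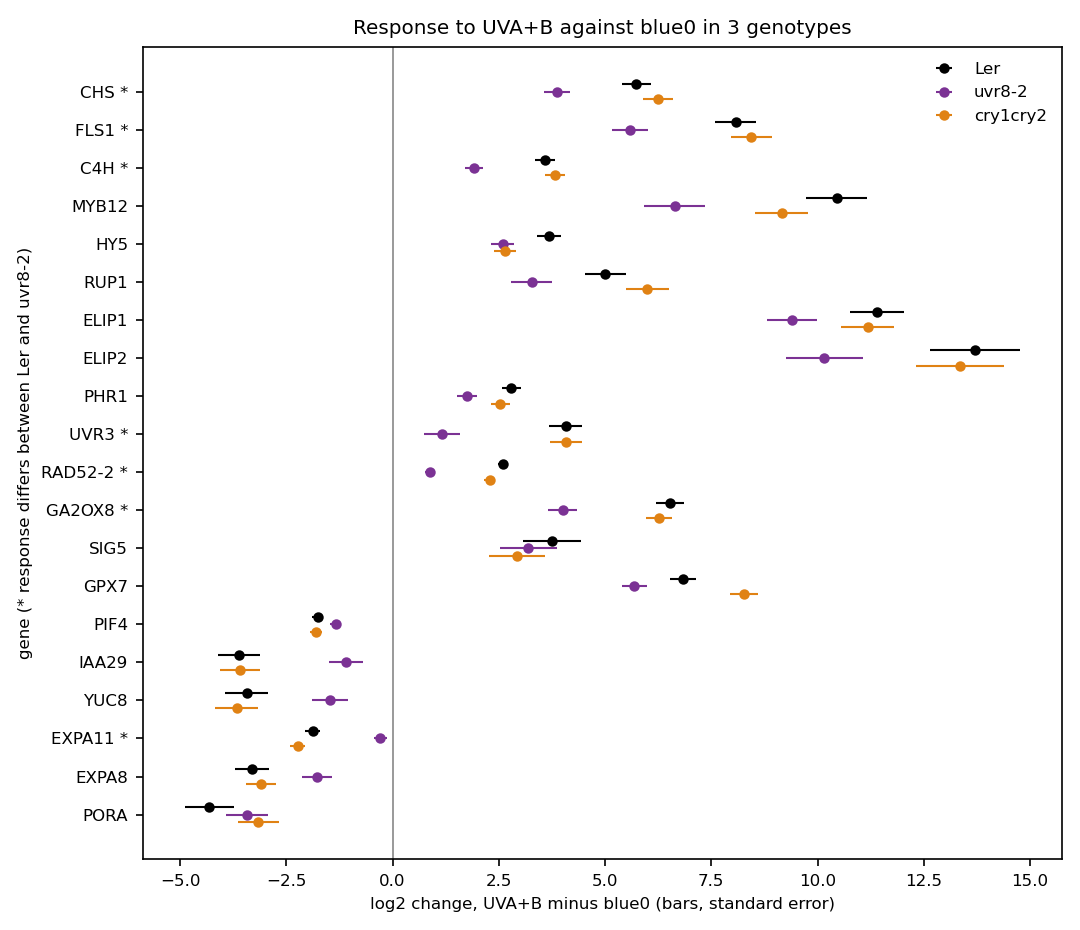
Log2 change of UVA+B minus blue0 (horizontal axis, bars for the standard error) of 20 genes in Ler in black, uvr8-2 in purple and cry1cry2 in orange, with an asterisk where the response differed between Ler and uvr8-2. CHS, FLS1 and UVR3 lie nearer to 0 in uvr8-2 than in Ler, whereas CHS in cry1cry2 lies at 6.24, beside its 5.73 in Ler.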

How the data were processed

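The libraries were made with a stranded mRNA kit, per the labels' protocols, from pooled rosettes. Reads passed FastQC, Trimmomatic 0.33 and kallisto, per the submitters' processing notes. The authors deposited estimated counts per locus, 34212 loci in 30 libraries, while no source used here names the genome build or says how strand was treated in counting. RNA from genes that share sequence is divided among them by such estimates, so that values of near-identical copies are uncertain.

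Estimated counts were rounded, and loci were kept by edgeR's filterByExpr (4.0.16, R 4.3.3, limma 3.58.1) with its group setting, which left 19980 genes. After TMM scaling (factors 0.927 to 1.11), 1 quasi-likelihood model with a coefficient for each of 15 groups was fitted over all 30 libraries, leaving 15 degrees of freedom. Comparisons and their differences between genotypes were contrasts of this model, called where the p-value, adjusted by Benjamini-Hochberg over all genes tested, was below 0.05. "Called" always refers to this rule. CPM are counts scaled to a common library size after TMM and were compared only within a gene. Standard errors of a log2 change are its absolute value divided by the square root of the quasi-likelihood F statistic. They were derived from the test in this way and not estimated directly. Exact intervals and the 3-count bounds cover counting error only. With 2 libraries against 2, an exact permutation test cannot go below a p of 0.333, and none was used.

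Genes are named by a rule: the 15 largest called changes in each direction without overlap where the higher group averaged 5 CPM or more, up to 6 called genes of each of 30 lists, taken by smallest p, a fixed set of light signalling genes, up to 5 differences between genotypes in each direction, and members that go against their list. The members and lists were chosen with earlier results of these data known. Of 524 listed loci, 521 were in the table and 500 were tested.

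Counts were simulated with 200 genes changed in Ler UVA+B alone, and 19747 genes passed the filter. For the Ler comparison edgeR called 37.5%, 58.9% and 88.7% of genes changed 1.5-fold, 2-fold and 4-fold, and 8 unchanged genes. For the difference between Ler and uvr8-2 the shares were 1.79%, 27.4% and 78.9%. In the data 43.5% of genes were called in Ler, far more than were changed here. The shares for Ler therefore do not measure what the real comparison could detect. Alternatives were DESeq2 1.42.0, relative log expression scaling, no filter, unrounded counts, no organelle loci, a replicate block, the compared groups only, a log2 change of at least 1 as well, and leaving out each library.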

Additional observations from a re-analysis of the deposited data

Results flagged for a closer look

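The responses to the filters differed between genotypes by the test of the difference itself in 229 genes for Ler minus uvr8-2 and in 2 for Ler minus cry1cry2. All values here are differences of log2 changes by edgeR's quasi-likelihood test, and none of their causes was tested.

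The 5 largest differences above 0 against uvr8-2 were 3.43 for AT5G62210 (embryo-specific protein 3), 3.12 for PHT4;2 (a phosphate transporter), 3.07 for AT1G30190 (cotton fiber protein), 3.03 for FER2 (a ferritin) and 2.91 for UVR3 (a photolyase). AT5G62210 was called in all 8 fits that leave out a library, and PHT4;2, AT1G30190, FER2 and UVR3 in 3, 3, 2 and 4 of them. The 5 largest below 0 were -2.29 for AT5G02760 (a protein phosphatase), -2.07 for ACS4 (an ACC synthase), -2.07 for AT1G15410 (aspartate-glutamate racemase), -1.91 for AT4G24275 (uncharacterised) and -1.65 for AT1G64065 (a LEA family protein). They were called in 4, 0, 1, 1 and 4 of the 8 fits. Against cry1cry2 the differences were 1.59 for AT1G16260 (a wall-associated kinase family member) and 1.55 for ATSPS4F (a sucrose-phosphate synthase).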

How the results depend on the processing

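No named gene called in Ler reversed under any alternative run, while CCA1 and ATSPS4F, which were not called, changed sign, to -0.04 without Ler UVA+B replicate 1 and to 0.04 without Ler blue0 replicate 2. Relative log expression scaling, unrounded counts and leaving out organelle loci moved no count of calls by over 1.5 times. The number called moved as follows. Without a filter, Ler minus cry1cry2 gave 16. DESeq2 gave 398 for Ler minus uvr8-2, 44 for Ler minus cry1cry2 and 1093 for UVA minus UV0. With only the compared groups in the fit, uvr8-2 gave 1750, Ler minus uvr8-2 gave 50 and UVA minus UV0 gave 1136. With a log2 change of at least 1 as well, Ler gave 2600, uvr8-2 1094, cry1cry2 2635, Ler minus uvr8-2 131 and UVA minus UV0 128. The last follows from the stricter rule, and the cause of the other shifts was not tested.

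The labels do not say that a replicate number marks the same field blocks in every group. Deviations of same-numbered libraries correlated at 0.067 between Ler UVA+B and Ler blue0. Over all 105 pairs of groups the range was 0.026 to 0.435 (median 0.178), above 0 in each. Same-numbered libraries thus shared part of their deviations, whose source was not tested, and the fit reported here leaves this out. With the replicate number as a block the counts were 9786 for Ler, 6123 for uvr8-2, 9703 for cry1cry2, 810 for Ler minus uvr8-2, 56 for Ler minus cry1cry2 and 2089 for UVA minus UV0, and CRY2, CCA1 and PIL1 were then called in Ler.

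Leaving out 1 library at a time gave 5986 to 7963 calls in Ler, 3060 to 4402 in uvr8-2, 6184 to 7375 in cry1cry2, 71 to 646 for Ler minus uvr8-2, 0 to 6 for Ler minus cry1cry2 and 11 to 134 for UVA minus UV0. Of 215 named genes, 41 lost the call in at least 1 of the 4 fits for Ler. Beyond these fits, the call was lost by 26 with only the compared groups, 7 without a filter, WOX5 under DESeq2 and UBQ10 under relative log expression scaling. With 2 pooled libraries in each group, small differences between genotypes were mostly beyond reach in simulated counts.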
